A study of Mus musculus with 20 samples.

Results

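RNA of wild-type C57Bl/6J mouse testes taken on day 7 after birth was compared with RNA of testes taken on day 1. The comparison rests on 4 libraries, 2 biological replicates at each age, out of 10 RNA libraries and 20 libraries in the whole study; they were chosen by their labels, with no use of their values. The organs were stripped of their capsule and RNA was taken from the whole tissue, so that each library mixes germ cells with Sertoli, Leydig, peritubular, vascular and blood cells. The labels give no transgene and no treatment, and the sources used here do not say how many animals or litters a replicate pooled. Day 3 testes, also wild type and in 2 replicates, entered the fit to set the spread between replicates and are given beside the other ages. The day 7 libraries held 13247563 and 11813196 reads assigned to genes, against 6133551 and 8525886 for day 1, so that the day 1 values are the less precise.

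At birth the seminiferous cords hold gonocytes, the resting germ cells left from fetal life, enclosed by dividing Sertoli cells. In the days that follow gonocytes divide again, settle on the basement membrane and become spermatogonia; retinoic acid then drives a first wave of them to differentiate and prepares them for meiosis through Stra8. Around the cords the fetal Leydig cells, which make androgen, recede before an adult population arises, while vessels, smooth muscle and matrix grow with the organ.

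Levels are given as CPM, the counts put on one scale of sequencing depth with TMM factors, with the values of replicates 1 and 2 in that order. A log2 fold change is day 7 minus day 1 and carries its standard error, and a gene was called where the Benjamini-Hochberg adjusted p of edgeR's quasi-likelihood test was under 0.05. All 17 defining markers of Sertoli, germ, Leydig, peritubular, endothelial and macrophage cells were at 10 CPM or more in all 4 libraries. The log2 difference between the 2 replicates of an age had an SD over genes of 0.248 at day 7 and 0.337 at day 1. It was 0.571 at day 3, where the replicates stood farthest apart. Both day 1 libraries and the second day 3 library held low levels of transcripts of spermatids, germ cells that a testis of this age does not have; these are described below. RNA from a whole organ does not tell fewer cells of a type from less RNA per cell.

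Of 15233 genes tested, 2962 (19.4%) were called, 1375 higher (9.03%) and 1587 lower (10.4%) at day 7, and 5340 had an unadjusted p under 0.05. The falls were the larger: 368 of the called genes were more than 4-fold lower and 172 more than 4-fold higher, with median log2 fold changes of -1.24 among the lower and 0.90 among the higher genes. The median over all genes tested was 0.05. In all 2962 the 2 libraries of day 7 lay apart from those of day 1, but so they did in 74.7% of all genes tested (40.9% higher, 33.9% lower). The number of calls depended on each of the 6 libraries: it was 401 without the first day 7 library, 535 without the second, 262 without the first day 1 library and 450 without the second. It was 6963 and 7181 without the first and the second day 3 library. With the spermatocyte libraries in the fit it was 567, and with the 4 compared libraries alone 6798. An age left with 1 library adds nothing to the spread between replicates. Without either day 3 library the spread thus came from days 1 and 7 alone, as it did with the 4 compared libraries. Without a day 1 or day 7 library, the day 3 pair, which stood farthest apart, made up more of the spread. Counts of calls within gene lists moved the same way: of 20 counts of at least 5 calls, all 20 were lower without any day 1 or day 7 library and none was lower without a day 3 library. Of 168 genes named by rule, 136 were called, and 42 of these kept their call without each of the 6 libraries. None of the 136 changed sign in any alternative. Some of the genes not called did, such as Mki67, whose log2 fold changes ran from -0.2961 to 0.0932. A call lost when any 1 of the 4 compared libraries was left out is said below to rest on all 4 libraries.

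**Figure D1:**
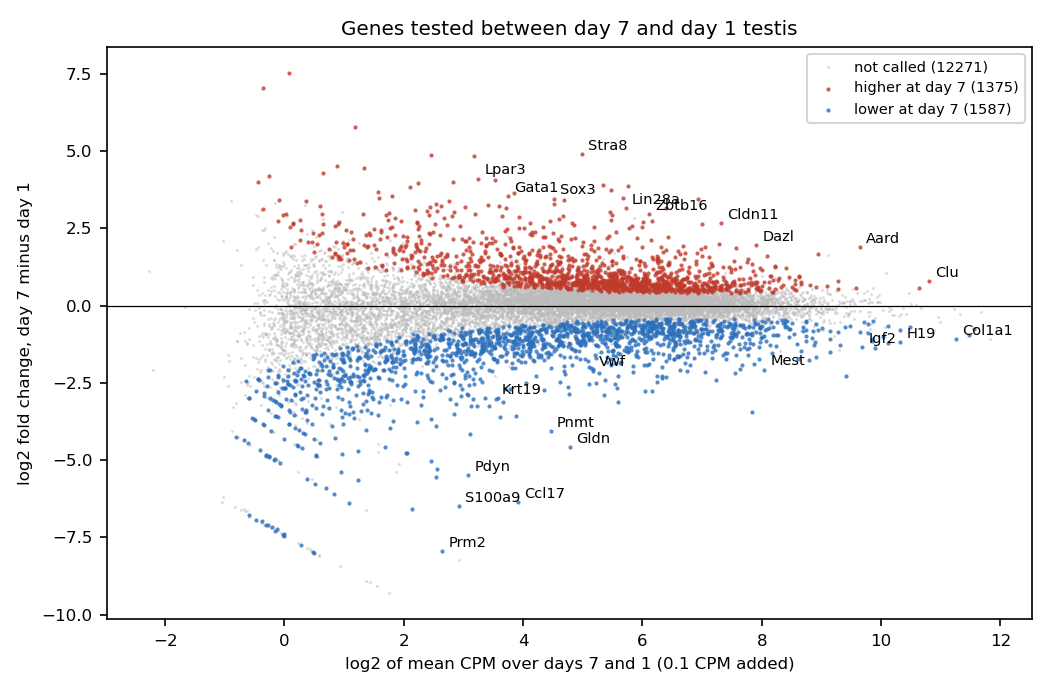
Log2 fold change (day 7 minus day 1) of 15233 genes tested against the log2 of their mean CPM over both ages; red points are the 1375 called higher, blue points the 1587 called lower and grey points the genes not called. Stra8 stands highest among the labelled genes and Prm2 lowest; the slanted rows of points at the lower left are genes with 0 or few reads at day 7, whose fitted fold changes depend on the prior count.

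The largest rise among genes of at least 10 CPM was that of Stra8, the gene that retinoic acid switches on before meiosis. Stra8 had 70.9 and 50.9 CPM at day 7, against 1.82 and 2.17 CPM at day 1 (log2 fold change 4.91 ± 0.38, adjusted p = 0.00131). Both day 7 libraries stood far above both day 1 libraries, which lay close together. Lpar3, a receptor for lysophosphatidic acid, had 17.6 and 17.8 CPM at day 7, against 0.994 and 1.03 CPM at day 1 (log2 fold change 4.11 ± 0.27, adjusted p = 0.00131). Gata1, a transcription factor of red blood cell precursors that Sertoli cells also make, had 22.97 and 25.8 CPM at day 7, against 2.98 and 1.37 CPM at day 1 (log2 fold change 3.54 ± 0.36, adjusted p = 0.00219). Ntn4, a secreted netrin, had 28.00 and 25.04 CPM at day 7, against 2.48 and 1.83 CPM at day 1 (log2 fold change 3.64 ± 0.33, adjusted p = 0.00175). For each of these genes both day 7 libraries stood above both day 1 libraries, as for every gene called higher. The C-type lectin Clec12b had 75.2 and 88.9 CPM at day 7, against 8.78 and 4.004 CPM at day 1, and the unnamed AI848285 had 91.6 and 109.9 CPM at day 7, against 9.94 and 4.23 CPM at day 1. Both of these kept their calls without each of the 6 libraries, as did Stra8, Lpar3, Gata1, Ntn4 and Gm41. Of the other 5 large rises, Tbx22, Vsig1, Tbc1d30, 4933402E13Rik and H2-Q10, each lost its call without either day 1 library. H2-Q10, a histocompatibility gene with near relatives that could share its reads, differed most between its day 7 replicates, at 9.08 and 25.6 CPM, against 0.166 and 0.915 CPM at day 1.

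Among the largest falls, Ccl17, a chemokine, had 0.4505 and 0.2496 CPM at day 7, against 26.3 and 33.1 CPM at day 1 (log2 fold change -6.35 ± 0.37, adjusted p = 0.00131). Pdyn, the precursor of the dynorphin opioid peptides, had 0.375 and 0.333 CPM at day 7, against 15.7 and 17.05 CPM at day 1 (log2 fold change -5.49 ± 0.32, adjusted p = 0.00131). Gldn, gliomedin, a matrix protein known from nerve, had 2.55 and 1.83 CPM at day 7, against 47.2 and 58.1 CPM at day 1 (log2 fold change -4.58 ± 0.29, adjusted p = 0.00131). The 3 genes were also high in both day 3 libraries, at 19.6 and 13.3 CPM for Ccl17, 9.04 and 6.84 for Pdyn and 19.7 and 13.5 for Gldn, so that the day 7 libraries stood below all 4 earlier ones. S100a9 and S100a8, the paired calcium-binding proteins of neutrophils, fell together: S100a9 had 0.1502 and 0.166 CPM at day 7, against 7.95 and 21.6 CPM at day 1 (log2 fold change -6.48 ± 0.78, adjusted p = 0.00336). S100a8 had 0.3003 and 0.166 CPM at day 7, against 5.63 and 16.8 CPM at day 1 (log2 fold change -5.54 ± 0.81, adjusted p = 0.00627). The first day 1 library held less of both than the second. Cnga1, a channel gated by cyclic nucleotides (log2 fold change -4.15 ± 0.31, adjusted p = 0.00131), fell. So did Dcdc2a, a microtubule-binding protein of the doublecortin family (log2 fold change -3.90 ± 0.38, adjusted p = 0.00198), and all 7 of these calls were kept without each library. The other 5 largest falls were Prm2, Ldhc, Tdrd6, Cdh16 and Pnmt, genes of spermatids and spermatocytes, of duct epithelium and of the adrenal medulla, which are taken up below with the markers of those tissues.

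By the difference in CPM the largest rises were of Clu and Aard, transcripts of Sertoli cells, and of Maged1 and Daam2. Clu had 2280.2 and 2251 CPM at day 7, against 1359 and 1235 CPM at day 1. Aard had 1187 and 1339.8 CPM at day 7, against 373 and 303 CPM at day 1. Maged1, of the MAGE family, had 1923 and 1896 CPM at day 7, against 1361 and 1202 CPM at day 1 (log2 fold change 0.58 ± 0.14, adjusted p = 0.0275). Daam2, a formin that shapes actin, had 736 and 758 CPM at day 7, against 252 and 215 CPM at day 1 (log2 fold change 1.68 ± 0.25, adjusted p = 0.00658). The largest falls by this measure were of the collagen genes Col3a1, Col1a1 and Col1a2 and of the imprinted RNA H19. Each of the 8 had day 7 libraries apart from its day 1 libraries, as every called gene did. The calls of Clu, Maged1 and Col1a2 rested on all 4 libraries, and Aard alone of the 8 kept its call without each.

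Many spermatogonial genes were higher at day 7. Of 33 genes of spermatogonial stem and progenitor cells tested, 16 rose (48.5%, against 9.03% over all genes tested) and 17 were not called. The median log2 fold change was 1.16, against 0.05 over all genes. Neurog3, which marks progenitors that begin to differentiate, had 7.51 and 8.32 CPM at day 7, against 0.497 and 0.572 CPM at day 1 (log2 fold change 3.85 ± 0.37, adjusted p = 0.00185). Sox3, an X-linked transcription factor of the same cells, had 45.05 and 39.02 CPM at day 7, against 2.98 and 4.46 CPM at day 1 (log2 fold change 3.47 ± 0.26, adjusted p = 0.00131). Zbtb16, the PLZF repressor that maintains spermatogonia, had 136 and 108 CPM at day 7, against 15.1 and 16.2 CPM at day 1 (log2 fold change 2.96 ± 0.49, adjusted p = 0.00915). Lin28a, an RNA-binding protein that blocks let-7 processing, had 100 and 89.3 CPM at day 7, against 6.79 and 14.1 CPM at day 1 (log2 fold change 3.15 ± 0.41, adjusted p = 0.00441). Nanos3, a translational repressor that keeps germ cells alive, was low at both ages but rose as well (log2 fold change 2.73 ± 0.43, adjusted p = 0.00782). Dazl, the most abundant of the list and a germ cell RNA-binding protein, had 398 and 367 CPM at day 7, against 65.3 and 130.3 CPM at day 1 (log2 fold change 1.96 ± 0.32, adjusted p = 0.0087), with the second day 1 library above the first. Itga6, an integrin subunit that tubule cells also carry, had 195 and 181 CPM at day 7, against 90.9 and 107 CPM at day 1, and was not called (adjusted p = 0.0937). The self-renewal factors Id4 (log2 fold change 0.20 ± 0.22), Etv5 (log2 fold change 0.06 ± 0.19) and Gfra1 (log2 fold change 0.48 ± 0.33), the receptor for GDNF, were among those not called. Without 1 library the number of rises lay between 4 and 23. Sox3 and Neurog3 kept their calls without each library. Lin28a lost its call without the first day 1 library, Zbtb16 without either day 1 library, Dazl without the first day 1 or first day 7 library, and Nanos3 without the second day 1 library or either day 7 library.

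Of 19 tested genes of differentiating spermatogonia and meiotic entry, 14 rose and 5 were not called, with a median of 1.44. The rises were 73.7%, against 9.03% over all genes tested. Besides Stra8, the list rose most at Dmrtb1, a transcription factor that sets the switch from mitosis to meiosis, with 31.5 and 21.8 CPM at day 7, against 3.31 and 3.89 CPM at day 1 (log2 fold change 2.87 ± 0.52, adjusted p = 0.0115). Crabp1, a carrier of retinoic acid, had 42.7 and 33.4 CPM at day 7, against 4.803 and 6.41 CPM at day 1 (log2 fold change 2.74 ± 0.29, adjusted p = 0.00246). Mageb4, an X-linked MAGE gene, had 33.1 and 28.8 CPM at day 7, against 3.81 and 7.67 CPM at day 1 (log2 fold change 2.39 ± 0.30, adjusted p = 0.00386). Kit, the receptor that differentiating spermatogonia carry, had 115 and 106 CPM at day 7, against 44.9 and 40.6 CPM at day 1 (log2 fold change 1.37 ± 0.15, adjusted p = 0.00253). Dnmt3b, a DNA methyltransferase of spermatogonia, had 72.8 and 59.3 CPM at day 7, against 20.04 and 27.7 CPM at day 1. Dmrt1, a sex-determining factor of germ and Sertoli cells, had 366 and 336 CPM at day 7, against 157 and 144 CPM at day 1 (log2 fold change 1.22 ± 0.13, adjusted p = 0.00239). In each of these both day 7 libraries stood above both day 1 libraries, as for every gene called higher. Ccnd2, a cyclin that many cells share and the most abundant on the list, went the other way without being called, at 700.4 and 636 CPM at day 7 and 1194 and 1075 CPM at day 1 (adjusted p = 0.0669). With 1 library left out the rises numbered 5 to 17; the calls of Stra8, Mageb4, Kit and Dmrt1 were kept without each library, and those of Dmrtb1, Crabp1 and Dnmt3b were lost without at least the first day 1 library.

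**Figure D2:**
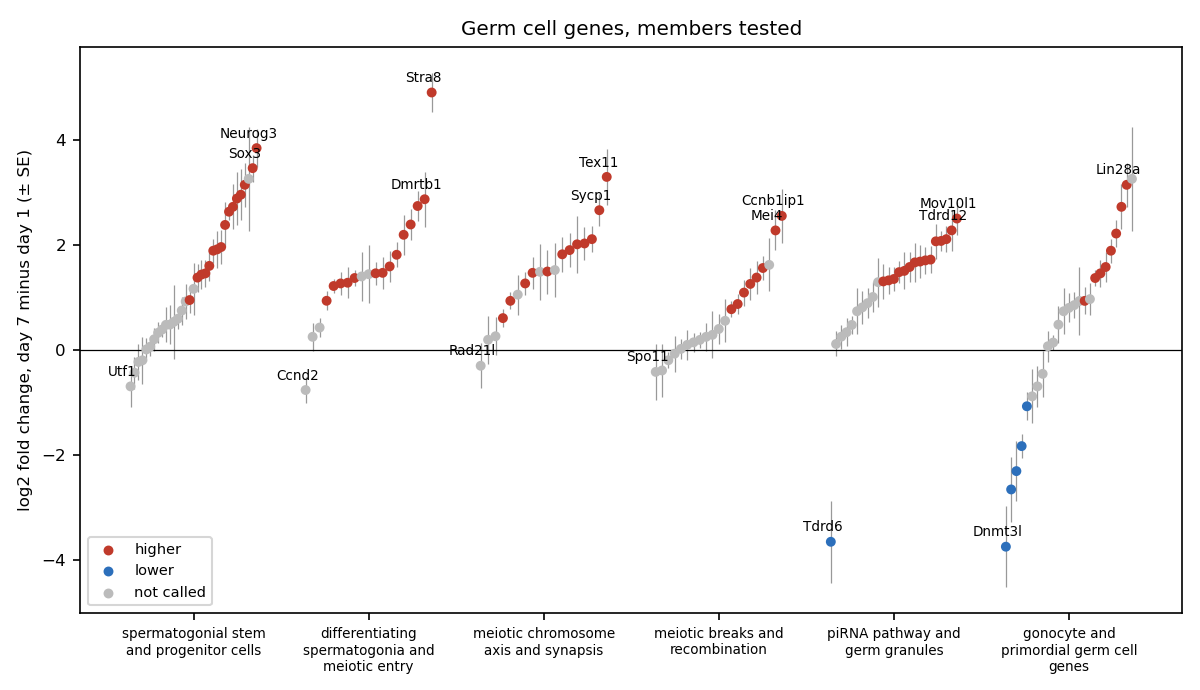
Log2 fold change (day 7 minus day 1) with its standard error for each tested member of 6 germ cell gene lists, ordered by size within a list; red members were called higher, blue lower, grey not called. Most called members lie above 0 in the first 5 lists, where Tdrd6 is the 1 blue point, while the gonocyte list has 8 red and 5 blue members.

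Parts of the meiotic chromosome were also higher, though at low levels. Of 18 tested genes of the chromosome axis and synapsis, 12 rose (66.7%, against 9.03% over all genes tested) and 6 were not called (median 1.49). Tex11, an X-linked protein of meiotic recombination nodules, had 42.3 and 40.4 CPM at day 7, against 2.48 and 5.61 CPM at day 1 (log2 fold change 3.30 ± 0.53, adjusted p = 0.00835). Sycp1, the transverse filament of the synaptonemal complex, had 50.98 and 46.6 CPM at day 7, against 8.12 and 7.32 CPM at day 1 (log2 fold change 2.66 ± 0.31, adjusted p = 0.00293). Syce1, a protein of its central element, had 20.3 and 15.4 CPM at day 7, against 3.31 and 5.26 CPM at day 1 (log2 fold change 2.03 ± 0.31, adjusted p = 0.00707). Fkbp6, which serves both synapsis and the piRNA pathway, had 119 and 112 CPM at day 7, against 19.5 and 33.3 CPM at day 1 (log2 fold change 2.11 ± 0.25, adjusted p = 0.00302). Of these 4 its call alone was kept without each library, and the other 3 lost it without the first day 1 library, Tex11 and Sycp1 also without the second and Syce1 also without the first day 7 library. Tex15 was the most abundant member and had 236 and 215 CPM at day 7, against 88.6 and 128 CPM at day 1, without a call (adjusted p = 0.0945). The genes of meiotic breaks and recombination had a smaller median: 8 of 21 rose (38.1%) and 13 were not called (median 0.40). Ccnb1ip1, needed for crossovers, had 5.18 and 6.57 CPM at day 7, against 0.497 and 1.37 CPM at day 1 (log2 fold change 2.56 ± 0.51, adjusted p = 0.0157). Mei4, which helps to form breaks, had 5.78 and 5.91 CPM at day 7, against 0.828 and 1.49 CPM at day 1 (log2 fold change 2.28 ± 0.38, adjusted p = 0.00945). Ccdc36, also known as Iho1, had 17.4 and 14.1 CPM at day 7, against 5.13 and 5.49 CPM at day 1. Mei1 had 8.33 and 6.91 CPM at day 7, against 2.32 and 3.43 CPM at day 1. Dmc1, the meiotic recombinase, rose slightly, with 13.5 and 13.6 CPM at day 7, against 6.96 and 7.78 CPM at day 1 (log2 fold change 0.88 ± 0.19, adjusted p = 0.0206). Spo11, which cuts the DNA, was at 1.13 and 0.832 CPM at day 7 and 0.828 and 1.72 CPM at day 1 and was not called. The repair gene Brca2, the most abundant of the list, had 139 and 124 CPM at day 7, against 90.3 and 88.9 CPM at day 1 and was not called. Mlh3, of mismatch repair and crossovers, had 47.2 and 48.2 CPM at day 7, against 45.7 and 48.3 CPM at day 1 and was not called. Without 1 library 1 to 15 axis genes and 0 to 10 recombination genes were called higher. The calls of Ccnb1ip1, Mei4, Mei1 and Dmc1 rested on all 4 libraries, and Ccdc36 lost its call without either day 1 library or the first day 7 library.

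Of 25 tested genes of the piRNA pathway, in which small RNAs guide PIWI proteins to silence transposons, 15 rose, 1 fell and 9 were not called (median 1.35). The rises were 60%, against 9.03% over all genes tested, and the fall 4%, against 10.4%. Mov10l1, the helicase that feeds piRNA precursors into the pathway, had 94.6 and 90.7 CPM at day 7, against 12.1 and 20.1 CPM at day 1 (log2 fold change 2.50 ± 0.31, adjusted p = 0.00378). Tdrd12, a Tudor protein of secondary piRNA production, had 11.04 and 8.902 CPM at day 7, against 1.33 and 2.63 CPM at day 1 (log2 fold change 2.28 ± 0.39, adjusted p = 0.01). Ddx4, the germ cell helicase also called VASA, had 148 and 131 CPM at day 7, against 33.1 and 59.5 CPM at day 1 (log2 fold change 1.58 ± 0.29, adjusted p = 0.0121). Piwil2, a PIWI protein and the most abundant of the list, had 217 and 191 CPM at day 7, against 56.8 and 107 CPM at day 1 (log2 fold change 1.31 ± 0.33, adjusted p = 0.0338). For each of these 4 genes the second day 1 library was higher than the first. Both lay below day 7, as for every gene called higher. Tdrd6, a Tudor scaffold of later spermatocytes and spermatids, was the fall, with 0.676 and 0.915 CPM at day 7, against 7.78 and 12.2 CPM at day 1 (log2 fold change -3.66 ± 0.78, adjusted p = 0.019). The day 3 libraries held 1.48 and 7.39 CPM, 1 near day 7 and 1 near day 1. Rises numbered 2 to 20 without 1 library, and Mov10l1 lost its call without the first day 1 library, Tdrd12 without either day 1 library or the first day 7 library, and Ddx4 without the first day 1 library or either day 7 library. The calls of Piwil2 and Tdrd6 rested on all 4 libraries.

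The gonocyte and primordial germ cell list moved in both directions, with 8 of 25 tested members higher, 5 lower and 12 not called (median 0.80). The higher members were 32%, against 9.03% over all genes tested, and the lower 20%, against 10.4%. The 8 that rose included Lin28b, the second let-7 antagonist, with 34.5 and 31.3 CPM at day 7, against 6.63 and 7.44 CPM at day 1 (log2 fold change 2.22 ± 0.25, adjusted p = 0.00281), and Ddx4, Lin28a and Nanos3 from the lists above. The 5 that fell were Dnmt3l, Sox2, Lefty2, Prdm1 and Ifitm3. Dnmt3l, the cofactor with which gonocytes set new DNA methylation, had 0.526 and 0.749 CPM at day 7, against 5.63 and 11.4 CPM at day 1 (log2 fold change -3.75 ± 0.77, adjusted p = 0.0167). Both day 1 libraries held more than either day 7 library, as for every gene called lower, and day 3 was split, at 3.31 and 0.551 CPM. Prdm1, which directs the founding of the germ line and also acts in other cells, had 3.53 and 3.41 CPM at day 7, against 13.4 and 11.4 CPM at day 1 (log2 fold change -1.83 ± 0.23, adjusted p = 0.00406). Sox2 had 0.225 and 0.2496 CPM at day 7, against 1.49 and 1.602 CPM at day 1 (log2 fold change -2.66 ± 0.62, adjusted p = 0.026). Alpl, the alkaline phosphatase used to stain early germ cells, had 91.5 and 81.5 CPM at day 7, against 84.5 and 72.7 CPM at day 1, and was not called. The calls of Dnmt3l, Sox2 and Lefty2 rested on all 4 libraries, Lin28b and Prdm1 lost theirs without the first day 1 library, and Ifitm3 without that library or either day 7 library. Of DNA methylation genes, 14 in all, Dnmt3b rose, with Dnmt1 (log2 fold change 0.58 ± 0.15, adjusted p = 0.0341), which copies methylation at replication, and its partner Uhrf1 (log2 fold change 0.63 ± 0.15, adjusted p = 0.0262). Dnmt3l fell, and Dnmt3a (388 and 379.8 CPM at day 7, 492 and 512 CPM at day 1) and Tet3 were among the 10 not called. The rises were 21.4% of this list, against 9.03% over all genes tested. The fall was 7.14%, against 10.4%, and the median was 0.08, against 0.05. Dnmt1 and Uhrf1 also rested on all 4 libraries.

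Promoters of the genes tested were searched for short motifs. RefSeq promoters (GRCm38.p6, 250 bases before to 50 after the start) matched 11169 of the 15233 genes tested, of which 8917 had exactly 1 and were used. The E-box CACGTG, which is its own reverse complement and is known as a site of MAX and its partners, stood in 12.1% of 816 promoters of genes called higher and 6.74% of 860 of genes called lower. It stood in 10.1% of all 8917 and in 7.15% of all 32851 promoters in the table. Of 74 promoters of tested germ cell list genes, 14 held it (18.9%), and 7 of the 39 of those called higher (17.9%). The E2F core TCCCGC, read on both strands (GCGGGA), stood in 41.9% of the promoters of higher genes, 31.4% of those of lower genes and 35.7% of all tested. TATAAA, on both strands, went the other way, at 6.13% in higher genes, 11.2% in lower genes and 7.3% of all tested, and CAAGGTCA, a site of NR5A1, was found in 1.35%, 0.93% and 0.99% of the same groups. The median count of CG pairs per promoter was 22 in higher genes, 17 in lower genes and 20 in all tested. A match describes these letters in this window and no more. The 4 promoters below, chosen after the matches were seen, belong to named germ cell genes that rose and hold 1 CACGTG each. They show how its place varies, with its first base 94 bases before the start in Sycp1, 29 in Ddx4, 246 in Mov10l1 and 49 in Lin28b. Capitals mark CACGTG and the E2F core on either strand; the sequences are on the gene's strand, 5′ to 3′.
Sycp1: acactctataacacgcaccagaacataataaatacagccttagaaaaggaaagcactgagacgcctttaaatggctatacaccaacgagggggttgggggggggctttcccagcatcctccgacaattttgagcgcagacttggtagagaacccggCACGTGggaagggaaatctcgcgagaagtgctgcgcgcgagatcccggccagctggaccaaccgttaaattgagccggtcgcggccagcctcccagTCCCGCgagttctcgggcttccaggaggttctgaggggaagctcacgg
Ddx4: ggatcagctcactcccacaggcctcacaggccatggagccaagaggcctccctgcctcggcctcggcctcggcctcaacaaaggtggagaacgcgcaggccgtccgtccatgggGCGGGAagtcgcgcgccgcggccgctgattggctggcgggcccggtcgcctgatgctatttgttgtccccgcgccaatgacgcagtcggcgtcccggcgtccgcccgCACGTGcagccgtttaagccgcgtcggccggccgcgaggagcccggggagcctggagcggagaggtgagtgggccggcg
Mov10l1: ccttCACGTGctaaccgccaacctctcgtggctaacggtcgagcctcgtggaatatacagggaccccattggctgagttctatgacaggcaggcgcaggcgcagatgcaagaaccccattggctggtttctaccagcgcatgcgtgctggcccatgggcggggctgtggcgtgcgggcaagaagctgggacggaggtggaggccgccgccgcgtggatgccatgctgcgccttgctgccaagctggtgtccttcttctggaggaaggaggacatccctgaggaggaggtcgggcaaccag
Lin28b: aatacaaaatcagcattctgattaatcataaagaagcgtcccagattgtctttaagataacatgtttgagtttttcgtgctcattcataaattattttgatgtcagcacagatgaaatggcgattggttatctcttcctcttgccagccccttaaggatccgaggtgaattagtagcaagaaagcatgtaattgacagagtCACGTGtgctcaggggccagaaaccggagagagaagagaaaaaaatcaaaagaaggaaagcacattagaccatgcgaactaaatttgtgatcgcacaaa
The first 2 also hold an E2F core. They lie at chr3:102936051-102936350 (minus strand) for Sycp1, chr13:112652261-112652560 (minus) for Ddx4, chr15:88982744-88983043 (plus) for Mov10l1 and chr10:45470152-45470451 (minus) for Lin28b, each over the transcription start. The window at Stra8, on chromosome 6, held neither motif.

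Genes that make, break down and answer retinoic acid had 4 of 21 tested members higher (19%, against 9.03% over all genes tested), 1 lower (4.76%, against 10.4%) and 16 not called (median -0.06). Aldh1a1, which makes retinoic acid, was the most abundant, with 919 and 953 CPM at day 7, against 859.8 and 864 CPM at day 1 (adjusted p = 0.568). Cyp26b1, which breaks it down, had 388 and 442 CPM at day 7, against 323 and 290.2 CPM at day 1 (adjusted p = 0.121). Besides Crabp1, 3 members rose. Stra6, the cell-surface receptor for retinol-binding protein, had 99.2 and 97.1 CPM at day 7, against 65.9 and 46.6 CPM at day 1 (log2 fold change 0.81 ± 0.21, adjusted p = 0.0363). Rbp4, that protein itself, had 8.48 and 6.99 CPM at day 7, against 2.65 and 1.95 CPM at day 1 (log2 fold change 1.77 ± 0.31, adjusted p = 0.0101). Cyp26a1, another degrading enzyme, was low at both ages, with 3.003 and 2.25 CPM at day 7, against 0 and 0.572 CPM at day 1 (log2 fold change 2.96 ± 0.74, adjusted p = 0.0324). Rarb, a retinoic acid receptor that the acid itself induces in many cells, fell (log2 fold change -1.64 ± 0.35, adjusted p = 0.0183). The calls of Stra6, Rbp4, Cyp26a1 and Rarb rested on all 4 libraries.

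Sertoli cell genes changed in both directions: of 36 tested, 13 rose, 8 fell and 15 were not called (median 0.32). The rises were 36.1%, against 9.03% over all genes tested, and the falls 22.2%, against 10.4%. Cldn11, the claudin that builds the tight junctions of the blood-testis barrier, had 240.2 and 307 CPM at day 7, against 53.2 and 33.9 CPM at day 1 (log2 fold change 2.66 ± 0.24, adjusted p = 0.00175). Aard had 1187 and 1339.8 CPM at day 7, against 373 and 303 CPM at day 1 (log2 fold change 1.90 ± 0.16, adjusted p = 0.00151). Defb36, a beta-defensin, had 46.5 and 52.3 CPM at day 7, against 9.61 and 6.75 CPM at day 1 (log2 fold change 2.61 ± 0.32, adjusted p = 0.00341). Clu, clusterin, a secreted chaperone, had 2280.2 and 2251 CPM at day 7, against 1359 and 1235 CPM at day 1 (log2 fold change 0.80 ± 0.14, adjusted p = 0.00945). Sox9, which fixes the Sertoli fate, had 298 and 336 CPM at day 7, against 139.8 and 152 CPM at day 1 (log2 fold change 1.12 ± 0.15, adjusted p = 0.00509). All 5 were higher in both day 7 libraries than in any day 3 or day 1 library. Among those that fell, Amh, the hormone by which fetal and neonatal Sertoli cells regress the female ducts, had 585 and 590.3 CPM at day 7, against 1277 and 1221 CPM at day 1 (log2 fold change -1.09 ± 0.23, adjusted p = 0.0199). Ptgds, a prostaglandin D synthase of Sertoli cells, fell further, with 18.2 and 15.2 CPM at day 7, against 103 and 126 CPM at day 1 (log2 fold change -2.77 ± 0.22, adjusted p = 0.00134). Inhba, the activin beta A subunit, had 38.1 and 37.4 CPM at day 7, against 129 and 133 CPM at day 1 (log2 fold change -1.80 ± 0.40, adjusted p = 0.0216). The keratins Krt18 (log2 fold change -2.50 ± 0.30, adjusted p = 0.0033) and Krt8 (log2 fold change -1.75 ± 0.36, adjusted p = 0.017), which immature Sertoli cells share with other epithelia, fell as well. Mesothelial cells, also an epithelium with keratins, had lower marker levels at day 7 (below), and their part in the keratins' fall was not tested. Ctsl, a protease and the second most abundant on the list after Clu, had 1087 and 1147 CPM at day 7, against 949 and 812 CPM at day 1, and was not called. Gata4 (log2 fold change -0.21 ± 0.13), Fshr (log2 fold change 0.29 ± 0.19), the receptor for FSH, and Kitl (log2 fold change 0.53 ± 0.17), the ligand of Kit, were not called either. Between 6 and 18 rose and between 1 and 13 fell without 1 library. Gata1, Cldn11, Aard and Ptgds kept their calls without each. Defb36 lost its call without either day 1 library. Sox9 lost its call without either day 1 library or the second day 7 library, Krt18 without the first day 1 library, and those of Clu, Amh, Inhba and Krt8 rested on all 4 libraries.

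**Figure D3:**
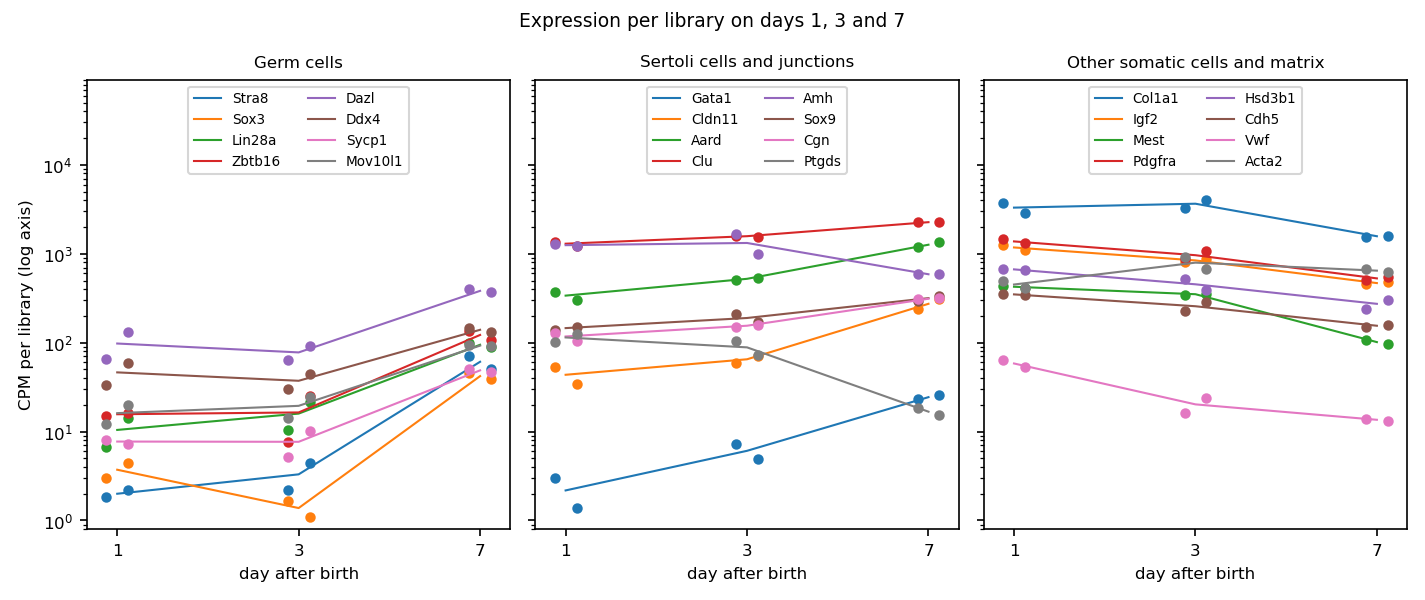
CPM on a log axis for 24 genes in the 2 libraries of each of days 1, 3 and 7 (points), with lines through the means, in panels for germ cells, Sertoli cells and junctions, and other somatic cells and matrix. Most germ cell lines are nearly level between days 1 and 3 and climb by day 7, while Amh, Ptgds and most lines of the last panel end lower at day 7.

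Junction genes of the blood-testis barrier were in part higher: 7 of 17 tested rose, 1 fell and 9 were not called (median 0.31). The rises were 41.2%, against 9.03% over all genes tested, and the fall 5.88%, below the 10.4% over all genes. Cgn, cingulin, which joins tight junctions to the cytoskeleton, had 307 and 317 CPM at day 7, against 129 and 106 CPM at day 1 (log2 fold change 1.41 ± 0.14, adjusted p = 0.00219). Tjp1, a ZO scaffold, had 328 and 306 CPM at day 7, against 262 and 268 CPM at day 1 (adjusted p = 0.497). Gja1, connexin 43 and the most abundant gene of the list, had 832 and 833 CPM at day 7, against 962 and 975 CPM at day 1 (adjusted p = 0.308). The fall was of Cldn5, which in this tissue endothelium also makes, with 12.5 and 14.7 CPM at day 7, against 38.4 and 29.6 CPM at day 1 (log2 fold change -1.32 ± 0.21, adjusted p = 0.00745). Cgn kept its call without each library; Cldn5 lost its call without the first day 1 or the first day 7 library, and 2 to 10 members rose without 1 library.

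Leydig cell genes, where called, were lower. Of 19 tested, 6 fell (31.6%, against 10.4% over all genes tested) and 13 were not called (median -0.59). Hsd3b1, a dehydrogenase on the way to androgen, had 242 and 305 CPM at day 7, against 674 and 659.9 CPM at day 1 (log2 fold change -1.29 ± 0.19, adjusted p = 0.00624). Cyp11a1, which makes pregnenolone from cholesterol, had 108 and 170.4 CPM at day 7, against 392 and 259 CPM at day 1 (log2 fold change -1.22 ± 0.30, adjusted p = 0.0284). The day 7 libraries lay below both day 1 libraries for each, as for every gene called lower. The other 4 falls were of genes known from precursors or stroma rather than from steroid synthesis. Pdgfra, the receptor of interstitial progenitors, had 507 and 549 CPM at day 7, against 1447 and 1306 CPM at day 1 (log2 fold change -1.38 ± 0.16, adjusted p = 0.00279). Their nuclear receptor Nr2f2, or COUP-TFII, had 144 and 138 CPM at day 7, against 353 and 355 CPM at day 1 (log2 fold change -1.33 ± 0.16, adjusted p = 0.00342). Dlk1, a Notch-like protein that is also imprinted, had 617 and 728 CPM at day 7, against 1617 and 1458 CPM at day 1 (log2 fold change -1.19 ± 0.17, adjusted p = 0.00534). Thbs2, a matrix thrombospondin, fell likewise (log2 fold change -0.73 ± 0.20, adjusted p = 0.0398). The steroid enzymes Cyp17a1 (log2 fold change -0.18 ± 0.34) and Hsd17b3 (log2 fold change -0.19 ± 0.14), the cholesterol carrier Star (log2 fold change -0.59 ± 0.27), the LH receptor Lhcgr (log2 fold change -0.02 ± 0.32) and the hormone Insl3 (log2 fold change -0.92 ± 0.37) were not called. Summed over the 22 genes of the list, levels were 2954 and 3422 CPM at day 7, against 6499 and 5795 CPM at day 1. This sum includes Dlk1 and Pdgfra, the 2 most abundant members, which are not genes of steroid synthesis. Pdgfra kept its call without each library and that of Thbs2 rested on all 4. Nr2f2 lost its call without the first day 1 library, Dlk1 without the first day 1 or the first day 7 library. Hsd3b1 and Cyp11a1 lost theirs without either day 1 library or the first day 7 library, and the number of falls ran from 1 to 13.

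Of 17 peritubular smooth muscle genes tested, 2 were higher (11.8%), 1 was lower (5.88%) and 14 were not called (median 0.10), shares near the 9.03% higher and 10.4% lower over all genes tested. Myh11, smooth muscle myosin, had 392 and 401 CPM at day 7, against 253 and 197 CPM at day 1 (log2 fold change 0.82 ± 0.23, adjusted p = 0.0474), a call lost with median-ratio or upper-quartile scaling. Lmod1, an actin-binding protein of smooth muscle, had 54.3 and 56.8 CPM at day 7, against 34.1 and 31.2 CPM at day 1 (log2 fold change 0.77 ± 0.17, adjusted p = 0.0227). Cald1, caldesmon, which other cells also make, was the fall (log2 fold change -0.53 ± 0.13, adjusted p = 0.0268); all 3 calls rested on all 4 libraries. Acta2, smooth muscle actin and the most abundant, had 669 and 622 CPM at day 7, against 493 and 409 CPM at day 1 (adjusted p = 0.0901). Mylk, the myosin kinase, had 548 and 567 CPM at day 7, against 571 and 498 CPM at day 1 (adjusted p = 0.828).

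Most collagen genes fell. Of 34 tested, 20 were lower (58.8%, against 10.4% over all genes tested), 1 was higher (2.94%, against 9.03%) and 13 were not called. The median was -0.86, and the summed level of the 34 was 11850 and 12290 CPM at day 7, against 23190 and 18940 CPM at day 1. Col1a1, a chain of fibrillar type I collagen, had 1562 and 1586 CPM at day 7, against 3744 and 2859 CPM at day 1 (log2 fold change -1.07 ± 0.19, adjusted p = 0.0102). Col1a2, its partner chain, had 2242 and 2215 CPM at day 7, against 4115 and 3442 CPM at day 1 (log2 fold change -0.76 ± 0.16, adjusted p = 0.0181). Col3a1, of type III, had 1798 and 2096 CPM at day 7, against 4193 and 3321 CPM at day 1 (log2 fold change -0.95 ± 0.17, adjusted p = 0.0115). The first day 1 library was the higher of its pair for all 3, and both stood above day 7, as for every gene called lower. Among the less abundant, Col5a1, which starts fibrils, had 297 and 297 CPM at day 7, against 901 and 769 CPM at day 1 (log2 fold change -1.49 ± 0.14, adjusted p = 0.00177). Col26a1, first known from testis and ovary, had 31.4 and 28.95 CPM at day 7, against 88.1 and 90.04 CPM at day 1 (log2 fold change -1.56 ± 0.15, adjusted p = 0.00179); both kept their calls without each library. Col2a1, the collagen of cartilage, was low throughout and fell (log2 fold change -2.20 ± 0.35, adjusted p = 0.0083). The single rise was of Col4a3, a basement membrane chain known from glomerulus and testis tubules, with 206 and 214 CPM at day 7, against 66.7 and 46.3 CPM at day 1 (log2 fold change 1.90 ± 0.38, adjusted p = 0.0161). Its relatives Col4a1 (log2 fold change -0.69 ± 0.14, adjusted p = 0.0145) and Col4a2 (log2 fold change -0.50 ± 0.14, adjusted p = 0.0416), the common type IV chains, fell. The calls of Col4a3, Col4a1, Col4a2, Col1a2 and Col2a1 rested on all 4 libraries, those of Col1a1 and Col3a1 did not survive leaving out the first day 1 library or either day 7 library, and 3 to 24 collagen genes were lower without 1 library.

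Of 38 other genes of the extracellular matrix, 19 fell (50%, against 10.4% over all genes tested) and 19 were not called (median -0.64). Vcan, the large proteoglycan versican, had 102 and 97.9 CPM at day 7, against 420.2 and 314 CPM at day 1 (log2 fold change -1.88 ± 0.28, adjusted p = 0.00686). Fbln1, fibulin 1, had 51.7 and 51.5 CPM at day 7, against 177 and 151 CPM at day 1 (log2 fold change -1.67 ± 0.13, adjusted p = 0.00137). Aspn, asporin, had 18.8 and 16.2 CPM at day 7, against 58.3 and 55.9 CPM at day 1 (log2 fold change -1.71 ± 0.18, adjusted p = 0.00239). Mfap2, a microfibril protein, had 62.9 and 64.6 CPM at day 7, against 195 and 172 CPM at day 1 (log2 fold change -1.52 ± 0.16, adjusted p = 0.00239). The last 3 kept their calls without each library, and Vcan lost its call without the first day 1 library. Lox, which crosslinks collagen (log2 fold change -1.52 ± 0.20, adjusted p = 0.00468), fell too, a call lost without the first day 1 library, and so did its relative Loxl2 (log2 fold change -1.39 ± 0.14, adjusted p = 0.00199). Sparc, the most abundant matrix gene, had 3001 and 3093 CPM at day 7, against 3778 and 3235 CPM at day 1 (adjusted p = 0.368). Hspg2, perlecan, had 854 and 771 CPM at day 7, against 1429 and 1219 CPM at day 1 (adjusted p = 0.108); neither was called. Mesothelial markers of the testis covering, which is rich in collagen, were lower at day 7 beside these falls, summing to 25.5 and 37.9 CPM over 6 genes at day 7, against 160.3 and 121.9 CPM at day 1. Their part in the falls was not tested.

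Endothelial genes showed falls in 16 of 22 tested (72.7%, against 10.4% over all genes tested), with 6 not called (median -1.19). Vwf, the clotting factor stored by endothelium, had 13.8 and 13.3 CPM at day 7, against 63.1 and 53.5 CPM at day 1 (log2 fold change -2.10 ± 0.22, adjusted p = 0.00239). Tie1, a receptor kinase of vessels, had 14.7 and 14.1 CPM at day 7, against 53.7 and 41.1 CPM at day 1 (log2 fold change -1.71 ± 0.19, adjusted p = 0.00256). Sox7, a transcription factor of vessel development, had 5.18 and 6.99 CPM at day 7, against 19.9 and 23.8 CPM at day 1 (log2 fold change -1.85 ± 0.24, adjusted p = 0.00407). Cdh5, the cadherin of endothelial junctions and the most abundant, had 151 and 158 CPM at day 7, against 356 and 342 CPM at day 1 (log2 fold change -1.17 ± 0.15, adjusted p = 0.00372). Each lay lower in both day 7 libraries than in both day 1 libraries, as for every gene called lower. The 22 genes summed to 566 and 564 CPM at day 7, against 1228 and 1088 CPM at day 1. Eng, endoglin, fell least among the genes named (log2 fold change -0.66 ± 0.13, adjusted p = 0.0132). Vwf and Tie1 kept their calls without each library, Cdh5 lost its call without the first day 1 library and Sox7 without the second, that of Eng rested on all 4, and 4 to 21 genes fell without 1 library.

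Imprinted genes, many of which promote or restrain fetal growth, were lower in many cases: 14 of 28 tested fell, 1 rose and 13 were not called (median -0.76). The falls were 50%, against 10.4% over all genes tested, and the rise 3.57%, against 9.03%. Mest, also called Peg1, had 106 and 96.8 CPM at day 7, against 434 and 416 CPM at day 1 (log2 fold change -2.07 ± 0.13, adjusted p = 0.00131). Slc38a4, an amino acid transporter, had 24.2 and 23.2 CPM at day 7, against 91.8 and 90.3 CPM at day 1 (log2 fold change -1.94 ± 0.15, adjusted p = 0.00131). Grb10, an adaptor that restrains growth, had 217 and 215 CPM at day 7, against 622 and 563 CPM at day 1 (log2 fold change -1.45 ± 0.13, adjusted p = 0.00175). Igf2, the fetal insulin-like growth factor, had 459 and 477 CPM at day 7, against 1266 and 1088 CPM at day 1 (log2 fold change -1.33 ± 0.14, adjusted p = 0.00249). In each the libraries of 1 age lay close together, and all 4 calls were kept without each library. H19, the noncoding RNA beside Igf2, had 804 and 754 CPM at day 7, against 1904 and 1648 CPM at day 1 (log2 fold change -1.19 ± 0.17, adjusted p = 0.00599), a call lost without the first day 1 or the second day 7 library. Ascl2, a transcription factor best known from placenta, was the rise, with 8.26 and 7.32 CPM at day 7, against 0.828 and 2.29 CPM at day 1 (log2 fold change 2.24 ± 0.42, adjusted p = 0.0122), a call lost without the first day 1 library or either day 7 library. Genes that mark fetal and tumour growth were split in both directions, with 4 of 16 higher (25%, against 9.03%) and 6 lower (37.5%, against 10.4%). Igf2bp2, which binds Igf2 RNA, had 34.6 and 33.03 CPM at day 7, against 111 and 112 CPM at day 1 (log2 fold change -1.72 ± 0.14, adjusted p = 0.00144). Hmga2, a chromatin protein of fetal growth, fell to 0.375 and 0.499 CPM at day 7, against 4.64 and 4.58 CPM at day 1 (log2 fold change -3.37 ± 0.39, adjusted p = 0.00294). Its relative Hmga1, whose reads near-identical copies could share, rose (log2 fold change 1.91 ± 0.37, adjusted p = 0.0137). The other rises were of Lin28b, Nr6a1 and Mycn, and the other falls of Igf2bp3, H19, Igf2 and Dlk1. Igf2bp2 and Hmga2 kept their calls without each library, while those of Hmga1, Nr6a1, Mycn and Igf2bp3 rested on all 4; with upper-quartile scaling Nr6a1 and Mycn also lost theirs, and Mycn with median-ratio scaling.

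Of 26 secreted niche ligands and growth factors tested, 10 fell (38.5%, against 10.4% over all genes tested) and 16 were not called (median -0.57). Wnt4, a ligand of interstitial and ovarian-type development, had 9.16 and 11.3 CPM at day 7, against 57.5 and 60.1 CPM at day 1 (log2 fold change -2.52 ± 0.35, adjusted p = 0.00549). Tgfb2 had 23.6 and 32.5 CPM at day 7, against 106 and 107 CPM at day 1 (log2 fold change -1.92 ± 0.17, adjusted p = 0.00175). Nrg1, a neuregulin, had 5.56 and 5.41 CPM at day 7, against 24.2 and 20.7 CPM at day 1 (log2 fold change -2.03 ± 0.19, adjusted p = 0.00191). Cxcl12, the chemokine that guides germ cells, had 193 and 211 CPM at day 7, against 711 and 654 CPM at day 1 (log2 fold change -1.76 ± 0.19, adjusted p = 0.00239). Igf1 had 264 and 323 CPM at day 7, against 731 and 586 CPM at day 1 (log2 fold change -1.17 ± 0.19, adjusted p = 0.00922). Day 7 lay below day 1 in all 4 libraries for each, as for every gene called lower. Gdnf (log2 fold change -0.31 ± 0.13), which sustains stem spermatogonia, was not called, nor was Kitl. Nrg1, Tgfb2 and Cxcl12 kept their calls without each library, Igf1 lost its call without either day 1 library or the first day 7 library, Wnt4 lost its call without either day 1 library, and 5 to 14 ligands fell without 1 library.

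Of 26 genes of cell division, 3 rose (11.5%, against 9.03% over all genes tested) and 23 were not called (median 0.33). Of 25 genes of DNA replication, 6 rose (24%) and 19 were not called (median 0.37). With 1 library left out, 0 to 14 division genes and 0 to 16 replication genes rose; the replication count was 0 without any 1 of the day 1 and day 7 libraries and 14 to 16 without a day 3 library. Cenpf, a centromere protein, had 408 and 337 CPM at day 7, against 213 and 171 CPM at day 1 (log2 fold change 0.96 ± 0.24, adjusted p = 0.0333). Cdc45, of the replicative helicase, had 39.1 and 35.2 CPM at day 7, against 18.9 and 19.7 CPM at day 1 (log2 fold change 0.95 ± 0.18, adjusted p = 0.0132). Mki67, the proliferation marker, had 585 and 471 CPM at day 7, against 632 and 498 CPM at day 1 (adjusted p = 0.839). Top2a had 436 and 370.3 CPM at day 7, against 389.9 and 299.8 CPM at day 1 (adjusted p = 0.4). The calls of Cenpf and Cdc45, and those of Kif20a, Mybl2, Mcm10, Mcm2 and Fen1, rested on all 4 libraries, and that of Mybl2 was also lost with upper-quartile scaling. Of the 7 cyclin-dependent kinase inhibitors, 2 rose (28.6%), 1 fell (14.3%, against 10.4% over all genes tested) and 4 were not called. Cdkn2a, whose locus makes p16 and ARF, had 23.6 and 17.7 CPM at day 7, against 3.48 and 6.64 CPM at day 1 (log2 fold change 1.99 ± 0.31, adjusted p = 0.00759). Its neighbour Cdkn2b, p15, had 3.23 and 2.83 CPM at day 7, against 0.663 and 0.915 CPM at day 1 (log2 fold change 1.90 ± 0.43, adjusted p = 0.0239). The imprinted Cdkn1c, p57, had 43.5 and 48.1 CPM at day 7, against 111 and 101 CPM at day 1 (log2 fold change -1.21 ± 0.18, adjusted p = 0.00642). Cdkn2a and Cdkn1c lost their calls without the first day 1 or the first day 7 library, Cdkn1c also without the second day 1 library, and the call of Cdkn2b rested on all 4 libraries.

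Of 17 genes of cholesterol synthesis and its control tested, 8 rose (47.1%, against 9.03% over all genes tested) and 9 were not called (median 0.57). Mvd, a decarboxylase of the pathway, had 32.5 and 31.3 CPM at day 7, against 15.9 and 16.9 CPM at day 1 (log2 fold change 0.96 ± 0.23, adjusted p = 0.0281). Srebf2, the transcription factor of the pathway, had 264 and 252 CPM at day 7, against 176 and 176 CPM at day 1 (log2 fold change 0.55 ± 0.12, adjusted p = 0.0191). Both calls, and that of Lss, rested on all 4 libraries; with 1 library left out, 0 to 16 members rose. Of 17 immediate early genes, which answer handling of tissue as well as growth signals, Ctgf (log2 fold change 1.37 ± 0.29, adjusted p = 0.0186), Atf3 (log2 fold change 1.33 ± 0.34, adjusted p = 0.0335) and Egr2 (log2 fold change 0.78 ± 0.20, adjusted p = 0.0327) rose. Jun, at 146 and 165 CPM at day 7 and 129 and 113 CPM at day 1, and the other 13 were not called. The rises were 17.6% of the list, against 9.03% over all genes tested. Among 13 interferon response genes, 1 rose (7.69%, near the 9.03% over all genes tested) and 9 were not called. Rsad2, Ifi44 and Isg15 fell (23.1%, against 10.4%). Rsad2 fell to 0.901 and 1.25 CPM at day 7, against 8.78 and 4.58 CPM at day 1 (log2 fold change -2.61 ± 0.45, adjusted p = 0.0101). Rsad2 lost its call without the first day 1 library or either day 7 library, and the calls of Ctgf, Atf3, Egr2, Ifi44 and Isg15 rested on all 4 libraries; under DESeq2 those of Egr2 and Isg15 were lost.

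**Figure D4:**
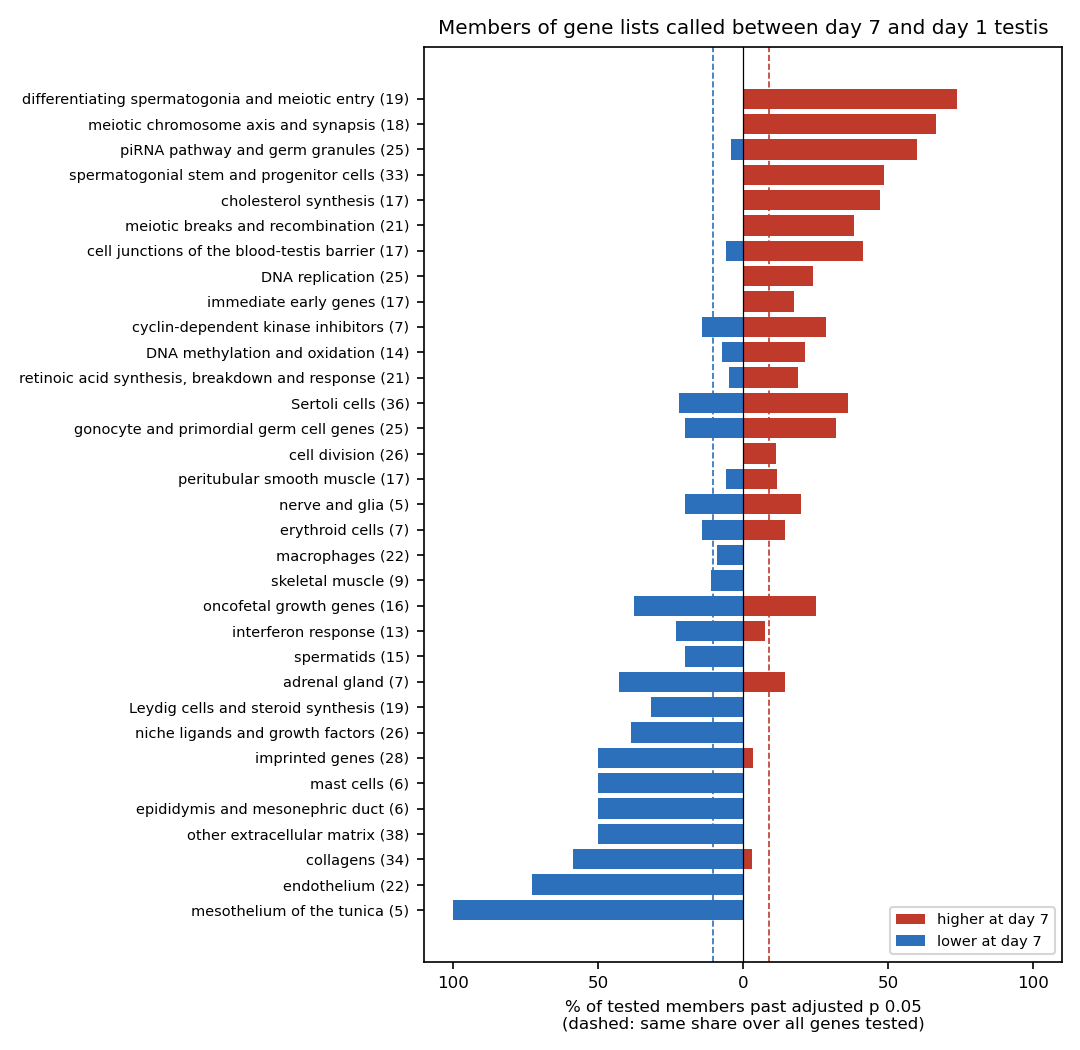
Share of tested members of each gene list called higher (red, to the right) or lower (blue, to the left) at day 7, for the 33 lists with at least 5 tested members (their number in brackets), ordered by the difference of both shares; dashed lines mark 9.03% higher and 10.4% lower over all genes tested. Spermatogonial, meiotic and piRNA lists stand near the top, and endothelial, collagen and mesothelial lists at the bottom.

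Mesothelial markers, and some markers of duct epithelium, adrenal gland and mast cells, were lower at day 7. All 5 tested mesothelial markers fell (100%, against 10.4% over all genes tested, median -2.15). Krt19 had 2.03 and 3.08 CPM at day 7, against 23.02 and 18.1 CPM at day 1 (log2 fold change -3.01 ± 0.29, adjusted p = 0.00198). Msln, mesothelin, had 5.03 and 7.65 CPM at day 7, against 32.3 and 29.1 CPM at day 1 (log2 fold change -2.28 ± 0.25, adjusted p = 0.00267). Upk3b had 12.2 and 15.6 CPM at day 7, against 66.1 and 46.3 CPM at day 1 (log2 fold change -2.01 ± 0.23, adjusted p = 0.00268), 3 calls kept without each library. The 6 genes of the list summed to 25.5 and 37.9 CPM at day 7, against 160.3 and 121.9 CPM at day 1. Of duct epithelium markers, 3 of 6 tested fell (50%, against 10.4%). Emx2, a homeobox gene of the urogenital tract, had 1.88 and 2.08 CPM at day 7, against 15.1 and 13.8 CPM at day 1 (log2 fold change -2.86 ± 0.22, adjusted p = 0.00131). Pax8 had 4.95 and 5.41 CPM at day 7, against 10.3 and 10.98 CPM at day 1, a call that rested on all 4 libraries. Cdh16, a cadherin of kidney and ducts, had 0.375 and 0.166 CPM at day 7, against 15.2 and 7.32 CPM at day 1 (log2 fold change -5.29 ± 0.88, adjusted p = 0.00929), a call lost without the first day 1 library or either day 7 library. Pnmt, the enzyme that turns noradrenaline into adrenaline, had 2.63 and 2.25 CPM at day 7, against 57.5 and 25.5 CPM at day 1 (log2 fold change -4.07 ± 0.62, adjusted p = 0.0072), and 142 and 53.04 CPM at day 3. The call was lost without the first day 1 library. The first library was the higher at both day 1 and day 3. Of the 12 adrenal genes, 7 were tested, 3 fell and Chga, a granule protein, rose (log2 fold change 2.49 ± 0.52, adjusted p = 0.0174). The falls were 42.9% of those tested, against 10.4% over all genes, and the rise 14.3%, against 9.03%. Th and Dbh, which make the substrate of Pnmt, had 1 and 0 reads over both day 7 libraries, against 2 and 3 over both day 1 libraries. The steroid enzymes Cyp11b1 and Cyp21a1 were not called. Of 6 mast cell genes tested, the proteases Tpsb2 (log2 fold change -2.51 ± 0.43, adjusted p = 0.0103), Cma1 (log2 fold change -1.59 ± 0.42, adjusted p = 0.0374) and Cpa3 (log2 fold change -1.52 ± 0.32, adjusted p = 0.0181) fell and 3 were not called. The mast cell falls were 50%, against 10.4% over all genes tested. Hdc, which makes histamine and is the most abundant of them, had 23.6 and 20.3 CPM at day 7, against 19.05 and 14.2 CPM at day 1, and was not called. Each of the proteases was highest on average at day 3, where Tpsb2 had 24.7 and 11.2 CPM. The call of Tpsb2 was lost without either day 1 library or the first day 7 library, and those of Cma1 and Cpa3 rested on all 4 libraries. Macrophage genes had 2 falls, Itgam and Ptprc, among 22 tested (9.09%, near the 10.4% over all genes; median -0.17), with Lyz2 at 35.4 and 47.01 CPM at day 7 and 30.5 and 31.2 CPM at day 1 and not called. Red blood cell genes summed to 83.4 and 66.6 CPM at day 7, against 50.02 and 52.97 CPM at day 1. Of the 7 tested, Slc4a1, the anion exchanger band 3, fell (log2 fold change -3.84 ± 0.77, adjusted p = 0.0156). Gata1, which Sertoli cells share, rose, and each is 14.3% of those tested. Hba-a1 and Hba-a2 are listed at 0 in all libraries compared. The calls of Slc4a1, Itgam and Ptprc rested on all 4 libraries, that of Itgam was also lost with plain library sizes, and that of Chga was lost without either day 1 library or the first day 7 library. Lists of muscle, fat and nerve genes summed to 15.2 to 128.8 CPM in the day 7 libraries and 16.9 to 132.3 CPM in the day 1 libraries. Of 9 muscle genes tested Myog fell (11.1%, near the 10.4% over all genes tested). Of 2 fat genes tested Fabp4 fell (50%, against 10.4%), a call lost under DESeq2. Of 5 nerve genes tested Mbp fell and S100b rose (20% each way, against 10.4% lower and 9.03% higher over all genes). The calls of Myog, Fabp4 and Mbp rested on all 4 libraries, while S100b kept its call when the first day 7 library was left out but not without any of the other 3. The part of any of these cells in the falls of other lists was not tested.

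**Figure D5:**
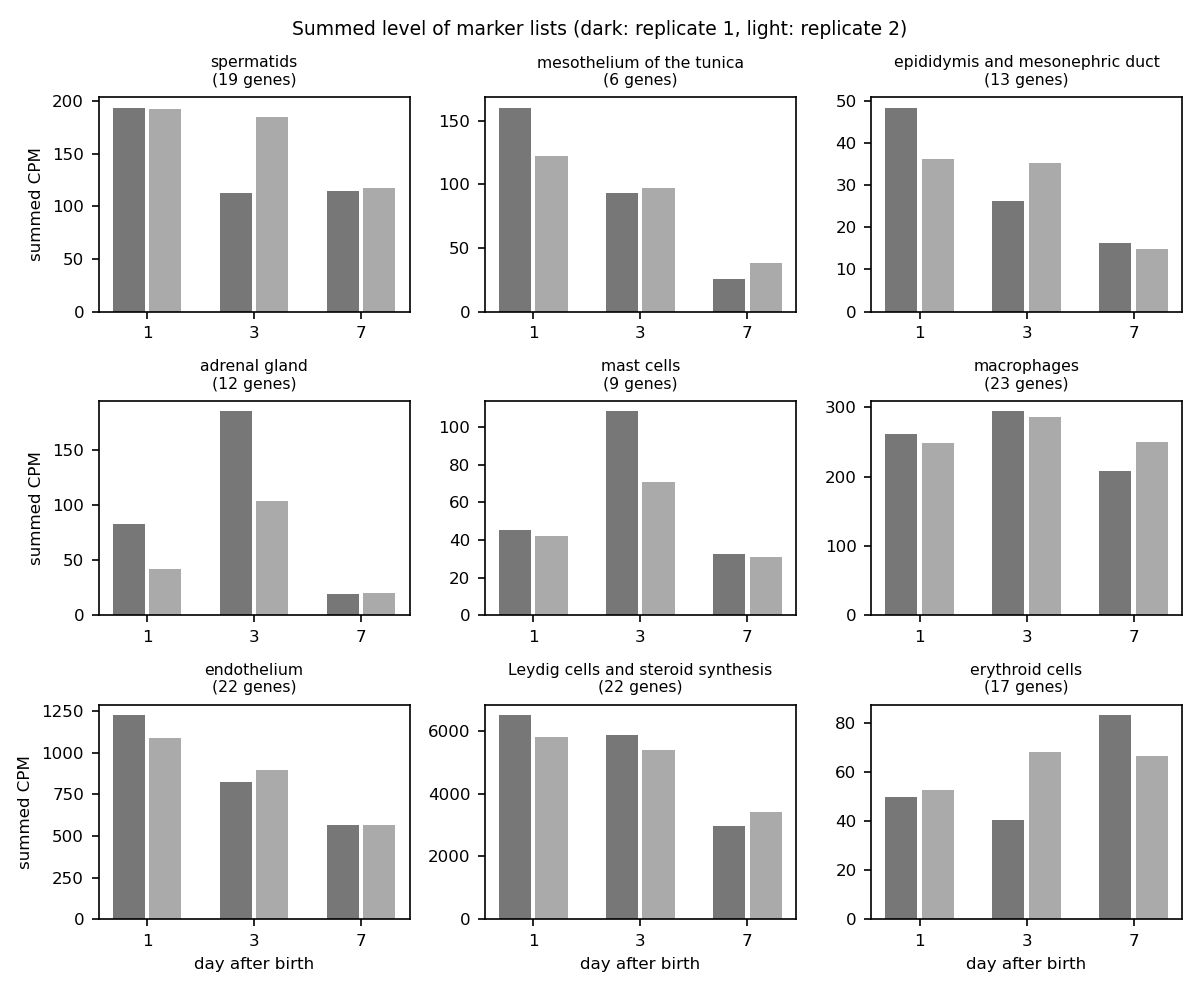
Summed CPM of 9 marker lists in each library on days 1, 3 and 7 (dark bars replicate 1, light bars replicate 2), with the number of genes in brackets. Mesothelial, duct, endothelial and Leydig sums were lowest at day 7 in both replicates, and adrenal and mast cell sums peaked at day 3. The spermatid sum was higher in both day 1 libraries and the second day 3 library than in the other 3.

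Transcripts of spermatids, which arise only weeks later, were found at low levels in some of the libraries. Prm2, a protamine that packs sperm DNA, had 1 read over both day 7 libraries, against 181 over both day 1 libraries, or 0 and 0.0832 CPM at day 7, against 12.1 and 12.4 CPM at day 1. The ratio of day 1 to day 7 was 310, with an exact 95% counting interval of 55 to 12300 (adjusted p = 0.0443). Tnp2, a transition protein, had 2 reads at day 7, against 126 at day 1 (ratio 108, interval 29.3 to 902, adjusted p = 0.0427). Odf1, of the outer dense fibres of the tail, had 2 reads at day 7, against 65 at day 1 (ratio 55.7, interval 14.8 to 470). Crisp2 had 0 reads at day 7, against 77 at day 1, at least 44-fold lower when 3 reads are taken over both day 7 libraries, without a call. In the day 3 libraries Prm2 was at 0.0448 and 8.93 CPM and Ldhc, the lactate dehydrogenase of spermatocytes, at 0.9401 and 8.93 CPM, so that the second resembled day 1 and the first day 7. Ldhc itself had 0.3003 and 0.333 CPM at day 7, against 8.45 and 12.6 CPM at day 1 (log2 fold change -5.02 ± 1.12, adjusted p = 0.0223). The calls of Prm2, Tnp2, Odf1 and Ldhc rested on all 4 libraries, and those of Prm2 and Tnp2 were also lost under a robust prior. Of the 15 spermatid genes tested, 3 fell (20%, against 10.4% over all genes tested) and 12 were not called (median -4.48). The list summed to 114.6 and 118 CPM at day 7, against 194 and 192.8 CPM at day 1. Most of each sum was Odf2, which was not called, with 102.6 and 108.1 CPM at day 7, against 124.1 and 121.5 CPM at day 1.

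The same genes were abundant in the libraries of purified spermatocytes, so the levels were set side by side on a scaling over all 10 RNA libraries. Each of the 19 spermatid genes was higher in the leptotene/zygotene than in the later pachytene fraction. Prm2 averaged 21700 CPM in the first and 1980 in the second, and Tnp2 9350 and 841. Whether other cells in these fractions held the transcripts was not tested. On that scale Prm2 averaged 9.15 CPM at day 1, which was 0.0421% of its level in the higher spermatocyte fraction, and the 19 spermatid genes stood between 0.0339% for Prm3 and 0.901% for Odf2. Genes at least 100 times as high in a spermatocyte fraction as at day 1, and at 100 CPM or more there, made up 74 of the 1587 genes called lower (4.66%), 55 of the 368 called more than 4-fold lower (14.9%), 32 of the 1375 called higher (2.33%) and 408 of the 12271 not called (3.32%). Among the named genes these were Prm2, Tnp2, Ldhc and Tdrd6, all lower at day 7, Vsig1, Dmrtb1 and Syce1, all higher, and Odf2, not called. Where these transcripts in the libraries of days 1 and 3 came from was not tested, and germ cell genes that spermatocytes share carry this limit in their day 1 values.

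Genes on the X chromosome were called higher in 105 of 588 tested (17.9%) and lower in 65 (11.1%), beside 1261 (8.65%) and 1518 (10.4%) of 14578 autosomal genes; the medians were 0.05 in both groups. Among the X-linked genes named are Sox3, Mageb4, Tex11, Gata1, Tbx22 and Vsig1, all higher.

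Day 3 lay closer to day 1 than to day 7 for most genes that differed between those ages. On the log2 scale this held for 993 of the 1375 genes called higher (72.2%) and 1159 of the 1587 called lower (73%), and for 483 of the 582 genes more than 2-fold higher (83%). Of genes more than 2-fold lower it held for 715 of 1030 (69.4%). Counted from day 1 as a share of the way to day 7, the median place of day 3 was 0.284 for the higher and 0.31 for the lower genes. Day 3 is also nearer in time to day 1, so a steady change would place it nearer to day 1 as well. The fit called 7 genes between day 3 and day 1 (0.046% of those tested), with 2829 at an unadjusted p under 0.05, and 2126 between day 7 and day 3 (14%); these comparisons share libraries with the one described here. Stra8 was at 1.82 and 2.17 CPM on day 1, 2.19 and 4.41 CPM on day 3 and 70.9 and 50.9 CPM on day 7. Vwf was at 63.1 and 53.5, 16.3 and 24.2 and 13.8 and 13.3 CPM on the same days, already low in both day 3 libraries. Aard stepped up on both intervals, at 373 and 303, 508 and 537 and 1187 and 1339.8 CPM. Amh was at 1277 and 1221, 1658 and 986 and 585 and 590.3 CPM, with day 3 replicates far apart.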

How the data were processed

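The authors deposited 1 table of raw read counts per gene for 10 RNA libraries, 6 of whole testis and 4 of spermatocytes. The submitters' processing notes name BWA 0.7.8, Bowtie 0.12.7, HTSeq 0.6.1, edgeR 3.6.8 and the mm9 build, with no roles; the strand setting is not given in the sources used here, so a gene and its antisense or overlapping neighbour cannot be told apart, and near-identical copies may share reads. The 5 rows that name no gene, 44.7% to 51.8% of each testis library's reads, were left out, and 23366 genes remained.

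Counts of the 6 testis libraries were fitted with edgeR 4.0.16 in R 4.3.3 (TMM factors, a minimum count of 10 in filterByExpr, glmQLFit with 3 residual degrees of freedom, two-sided glmQLFTest), which tested 15233 genes (65.2%). Standard errors are the log2 fold change divided by the square root of F. Counts on genes ran from 6133551 to 22181395 per testis library, so that 3 reads equal 0.134 to 0.497 CPM; intervals and such floors cover counting error only. No replicate pair agreed within sampling noise. Chi-square per degree of freedom between replicates was 4.39 at day 7, 4.53 at day 1 and 63.8 at day 3. Each p-value sets the difference between day 7 and day 1 against the spread between replicates, pooled over days 1, 3 and 7. The labels call replicates biological but do not say whether they come from separate litters. Whether that spread includes differences between litters is therefore not known. The fits were tested on simulated counts. These had the same spread at every age, so they do not cover the wider spread of the real day 3 pair.

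The members and the 34 gene lists (641 genes in the table, 581 tested) were chosen with earlier results of these data known. Genes were named by a rule: the 12 largest rises and 12 largest falls of at least 10 CPM, up to 4 called members of at least 5 CPM and the 2 most abundant of each list, and the 8 largest differences in CPM. Other named genes, such as Kit, Amh, Sox9, Cxcl12 and Lox, were chosen after their values were seen. Values of a few genes that the rule names are not reported here. Alternatives were DESeq2 1.42.0, other scalings and filters, other sets of libraries, a replicate block, a 2-fold minimum and a robust prior. Chromosomes came from RefSeq for 23210 symbols (99.3%).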

Additional observations from a re-analysis of the deposited data

How the results depend on the processing

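The counts of 2962 genes called, day 7 versus day 1, of 1375 genes higher at day 7 and of 1587 genes lower at day 7 stayed within 1.5 times under DESeq2 (3028), median-ratio, upper-quartile and plain scaling (2903, 2875 and 2901), no filter on low counts (3650) and a robust prior (3002). The replicate numbers did not pair the samples (correlations of -0.0822 to -0.0133 between ages), and a replicate block gave 2362 calls. Other settings moved the counts further. With the day 1 and day 7 libraries alone there were 6798 calls, 3226 higher and 3572 lower; with all 10 RNA libraries 567, 182 higher and 385 lower; and against a 2-fold minimum 222, 90 higher and 132 lower. Leaving out 1 library gave 262 to 7181 calls, 88 to 3842 higher and 174 to 3640 lower, the high ends without a day 3 library. Of the 2962 calls, 2693 were shared with DESeq2, 2936 with the fit of both ages alone, 547 with that of all 10 libraries and 259 with that lacking the first day 1 library; no shared call changed sign in any of these settings. An age left with 1 library adds nothing to the spread, and the day 3 replicates stood farthest apart. How far this sets the shifts was not tested. Among lists with a median more than 0.1 from 0, those of 3 changed sign: the peritubular list, with a range of -0.0319 without the second day 1 library to 0.384 without the first; the erythroid list, 0.16 with all 10 libraries and 0.0751 without the second day 1 library, with a range down to -0.783 without the first day 7 library; and the nerve list, with a range of -0.306 without the second day 1 library to 0.376 without the first. The medians of 5 lists nearer to 0 also crossed it in at least 1 setting: those of retinoic acid genes (-0.193 to 0.0865 over all settings), cyclin-dependent kinase inhibitors (-0.0652 to 0.201), oncofetal growth genes (-0.162 to 0.00806), DNA methylation genes (-0.000386 to 0.113) and immediate early genes (-0.135 to 0.469). Among the other values for single genes and lists, 3425 stayed alike, 477 lost a call, 60 gained one and 370 moved. The day 1 libraries are the shallowest and limit what can be said of genes low at that age.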
